A study of Mus musculus with 27 samples.

Results

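The transcripts of cytosolic and mitochondrial chaperones were followed in NIH/3T3 cells, an established line of mouse embryonic fibroblasts, over 48 h after a pulse of forskolin. The members were the probe sets whose single gene symbol in the platform annotation starts with Hsp, Dnaj, Bag and a digit, or Cct and a digit from 2 to 8, or is Tcp1, St13, Stip1, Ahsa1 or Hsf1. The endoplasmic reticulum chaperones Hspa5 and Hsp90b1 and the matrix gene Hspg2 were left out. The rule found 90 of the 12488 probe sets of the array, for 60 of the 8251 genes named by a single symbol, and used no measured value. No probe set with a single symbol was found for Hsp90ab1, Ahsa1 or Hsf1. After a filter on low intensity, 73 member probe sets for 54 genes were tested among 7453 probe sets in all. The name of the group is not exact for every member. By background knowledge 5 of the 27 J protein genes (Dnajb9, Dnajb11, Dnajc1, Dnajc3 and Dnajc10) encode proteins of the endoplasmic reticulum, and Hspb11 encodes a protein of intraflagellar transport. By the same knowledge 6 of the 60 genes (Hspd1, Hspe1, Hspa9, Dnaja3, Dnajc11 and Dnajc15) encode mitochondrial proteins.

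Cells at passages 4 and 5 were moved from 20% to 10% and then to 5% serum. They next spent 2 h without serum in the presence of 15 µM forskolin, which switches on adenylyl cyclase and so cAMP signalling, and after a rinse they stayed without serum. The series asked which transcripts follow a circadian course after such a pulse. One flask per time was collected at the end of the pulse (0 h) and at 6, 12, 18, 24, 30, 36, 42 and 48 h, in each of 3 experiments (27 arrays). The labels call the experiments biological replicates, and an n of 3 below is over experiments. All groups carry the same pulse and the same loss of serum, and cultures without a pulse were not analysed here. The 0 h group is therefore the end of the treatment and not an untreated state, and changes after it cannot be told apart from the time spent without serum. The arrays read the RNA of whole cultures, so a transcript present in fewer cells and less of it per cell cannot be told apart.

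Molecular chaperones bind unfolded proteins and help them to fold. Hsp70 proteins hold short hydrophobic stretches and are set to work by J proteins, which stimulate their ATPase, and by nucleotide exchange factors, which include the Hsp110 proteins and the Bag proteins. Hsp90 takes over late folding steps of kinases and receptors with a set of co-chaperones. The ring-shaped chaperonins, Hsp60 with Hsp10 in mitochondria and TRiC in the cytosol, enclose whole proteins, and small heat shock proteins hold unfolded proteins without ATP. Many chaperone genes are transcribed by heat shock factor 1, which binds inverted GAA and TTC units in their promoters.

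The promoters of 5 members that carry a heat shock element are shown. Of these, Hsph1, Dnajb4 and Dnaja1 were called in a comparison below, and Hspe1 and Hspa1b were not called without the experiment as a block. The sequences are the 250 bases before an annotated start in RefSeq's mouse assembly GRCm38.p6, read 5′ to 3′ on the strand of the gene. The capitals mark heat shock elements, that is GAANNTTC or TTCNNGAA, which read the same on both strands. The window shown for Hsph1 lies at chr5:149636337-149636586 on the minus strand and that for Dnajb4 at chr3:152193846-152194095 on the minus strand. That of Dnaja1 lies at chr4:40722218-40722467 on the plus strand, that of Hspe1 at chr1:55087898-55088147 on the plus strand and that of Hspa1b at chr17:34959239-34959488 on the minus strand.
Hsph1: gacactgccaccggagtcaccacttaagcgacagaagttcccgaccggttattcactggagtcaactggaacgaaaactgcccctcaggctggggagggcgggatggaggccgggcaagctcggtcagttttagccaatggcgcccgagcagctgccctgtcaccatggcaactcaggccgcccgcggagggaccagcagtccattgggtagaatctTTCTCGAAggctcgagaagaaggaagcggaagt
Dnajb4: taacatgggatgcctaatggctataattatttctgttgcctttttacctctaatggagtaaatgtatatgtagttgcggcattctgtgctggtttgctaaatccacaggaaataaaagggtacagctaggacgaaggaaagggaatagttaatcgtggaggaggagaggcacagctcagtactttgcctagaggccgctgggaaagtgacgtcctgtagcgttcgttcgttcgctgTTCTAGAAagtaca
Dnaja1: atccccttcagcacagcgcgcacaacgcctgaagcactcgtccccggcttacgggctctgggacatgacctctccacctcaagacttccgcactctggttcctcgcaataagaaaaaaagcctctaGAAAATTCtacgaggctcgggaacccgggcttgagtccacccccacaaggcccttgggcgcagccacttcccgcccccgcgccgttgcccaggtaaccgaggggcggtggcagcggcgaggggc
Hspe1: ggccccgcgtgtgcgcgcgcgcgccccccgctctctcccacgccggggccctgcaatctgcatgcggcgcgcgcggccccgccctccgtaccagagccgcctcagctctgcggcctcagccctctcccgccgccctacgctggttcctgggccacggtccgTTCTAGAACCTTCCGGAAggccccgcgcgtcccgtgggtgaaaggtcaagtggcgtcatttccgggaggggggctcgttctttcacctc
Hspa1b: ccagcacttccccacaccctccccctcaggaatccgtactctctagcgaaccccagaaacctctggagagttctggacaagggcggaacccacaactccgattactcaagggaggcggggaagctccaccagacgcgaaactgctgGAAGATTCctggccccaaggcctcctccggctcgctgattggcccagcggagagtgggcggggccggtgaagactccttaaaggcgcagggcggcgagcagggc
The element ended 26 bases before the start in the Hsph1 window shown, 7 bases before it in that of Dnajb4 and 117 bases before it in that of Dnaja1. These genes have further annotated starts. The element ended 47 bases before the other Hsph1 start, and the other windows of Dnajb4 and Dnaja1 held none. Hspe1, the mitochondrial co-chaperonin Hsp10, held 3 overlapping matches on a run of units. Its neighbour Hspd1 (Hsp60), annotated head to head with an overlap of 96 bases, shares that run. Among the 51 member genes with a window, 12 (23.5%) held the 2-unit element, against 14.5% of the 27025 genes of the table. They were Cct2, Cct5, Dnaja1, Dnajb4, Dnajb6, Dnajc10, Hspa1a, Hspa1b, Hspb1, Hspd1, Hspe1 and Hsph1. Bag3, Hspa4, Dnaja2, Dnajb1 and Dnajc9 were also called in a comparison below and held none in their windows. Hsp90aa1 and St13, called as well, had no window. The 3-unit form (GAANNTTCNNGAA or TTCNNGAANNTTC, which contains the 2-unit form) stood in 4 of 65 member windows (6.15%), against 0.466% of all 32851 windows. These 4 windows hold only 2 distinct stretches, since the 2 windows of Dnajb6 overlap on one run and Hspd1 and Hspe1 share the other. The full cAMP response element TGACGTCA was in 0 of the 65 member windows and in 1.55% of all windows. The shorter core TGACG or CGTCA, which the full element contains, was in windows of 21 of the 51 member genes (41.2%), against 19.8% of all genes. A match describes the letters of the window and is not evidence of binding.

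All 11 fibroblast marker genes with a probe set, out of 12 listed, passed the filter. Their summed intensity was 104723 to 107264 at 0 h, 111323 to 117952 at 6 h and 128660 to 142093 at 48 h, so it was higher on every array of both later times. The genes did not move as one. Col3a1 and Pdgfra rose at both times, Lum and Dcn rose at 48 h, and Thy1 fell at 6 h (−1.38 ± 0.20, adjusted p = 0.000110) and at 48 h (−1.01 ± 0.20, adjusted p = 0.00216). Col1a1, Col1a2, Fn1, Vim, S100a4 and Pdgfrb were not called at either time without the block. Summed marker intensities of other cell types were at most 751.7 for epithelial genes (1 of 6 passed), 1799 for macrophage and leukocyte genes (3 of 6 passed), 3157 for neuronal genes (3 of 6 passed), 924.7 for muscle genes (4 of 5 passed) and 542.1 for endothelial genes (1 of 5 passed). The macrophage and leukocyte sum was 1451.6 to 1799.2 at 0 h, 1126.6 to 1714.5 at 6 h and 1198.9 to 1393.2 at 48 h, so it was lower on every array at 48 h than at 0 h. Of that list Ptprc, Adgre1 and Lyz2 were below the filter, and Cd68 fell at 48 h (−0.57 ± 0.17, adjusted p = 0.0424) and as a trend (−0.51 ± 0.09 per day, adjusted p = 0.000835). The part of these markers in the chaperone changes at 6 h and 48 h was not tested. The ratio of the 3′ to the 5′ actin control, a sign of RNA quality, was 1.35 to 1.70 at 0 h, 1.30 to 1.73 at 6 h and 1.29 to 1.65 at 48 h, so these groups overlapped.

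At 6 h more chaperone transcripts lay below than above their level at the end of the pulse. Hsph1, the cytosolic Hsp110, fell most and was 5.38-fold lower at 6 h than at 0 h, and Bag3, a partner of Hsp70 in selective autophagy, was 2.92-fold lower. From 6 h to 48 h the directions split, as Hsph1, Hsp90aa1, Dnaja1, Dnaja2 and Dnajb1 rose and St13 fell. The brightest probe set of Hspa4 rose as well, and the Hspa4 probe sets differed in sign at 48 h against 0 h. Values are log2(intensity + 12.1) after quantile normalization, and changes are differences of such values with their standard error (SE) from limma over all arrays of a fit. A call is a Benjamini-Hochberg adjusted p below 0.05 over the 7453 probe sets. Arrays of the same experiment deviated together, and so the counts of calls are given with and without the experiment as a block in the fit.

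Over the 9 time points 9 of 73 member probe sets (12.3%), for 7 genes, varied, against 7.3% of all probe sets tested. With the block it was 21 of 73, against 26.4% of all, and the 12 added were probe sets of Hspe1, Hspa4, Hsp90aa1, Dnajb4, Dnajb6, Dnajb9, Dnajb11, Dnajc3, Cct3 and Cct6a. The 7 genes were Hsph1 and Hspa4 of the Hsp70 and Hsp110 family, the J protein genes Dnaja1, Dnaja2 and Dnajc9, Bag3 and St13. Without experiment 2, and likewise without experiment 3, 2 member probe sets were called, against 1.52% and 0.416% of all.

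At 6 h against 0 h 5 of 73 member probe sets (6.85%) were called and all 5 were lower. Of all probe sets 6.08% were called, 3.7% higher and 2.37% lower, so the share of members called is close to the background. With the block 14 were called, all lower, against 16.7% of all, 9.94% higher and 6.78% lower. Without experiment 2, and likewise without experiment 3, 3 were called, against 1.99% and 1.48% of all. Of the 73 changes 53 were negative, against 3772 of 7453, and the median was −0.24 over the 54 genes, against −0.0048 over all probe sets. In 11 of 54 genes (20.4%) all 3 values at 6 h lay below all 3 at 0 h, against 10.3% of all probe sets, and in 1 gene (1.85%) all lay above, against 12.3% of all. The median of the members was −0.23 without normalization and also −0.23 with each array centred on its median.

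At 48 h against 0 h, which shares the 0 h arrays with the comparison above, 7 of 73 member probe sets (9.59%) were called, all lower. Of all probe sets 7.92% were called, 4.68% higher and 3.23% lower. With the block 18 were called, 5 higher and 13 lower, against 19.9% of all, 10.8% higher and 9.16% lower. With limma's array weights 13 were called, 2 higher and 11 lower, against 12.1% of all. Without experiment 2 the number was 4 and without experiment 3 it was 3, against 3.77% and 1.97% of all. At 48 h 6 of 54 genes (11.1%) had all values below those at 0 h, against 10.1% of all probe sets, and 4 (7.41%) had all above, against 11.7%. The slope from 6 h to 48 h is the linear term, in log2 units per day, of a fit that also holds the cosine and sine of a 24 h period. For 8 of 73 member probe sets (11.0%) this linear trend was called, 6 up and 2 down, against 6.1% of all probe sets, 2.8% up and 3.3% down. With the block 19 had one, 15 up and 4 down, against 17.1% of all, 8.05% up and 9.03% down. With the linear term alone the same 8 were called, against 11.2% of all. Leaving out experiment 2 or experiment 3 left 0 of the 8 trend calls by limma, against calls in 1.22% and 0.496% of all probe sets, and all 8 slopes kept their sign. An unadjusted p below 0.05 then stood for 12 (16.4%) and 14 (19.2%) member probe sets, against 14.1% and 11.8% of all. Leaving out experiment 1 gave 12 calls, against 9.89% of all.

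**Figure D1:**
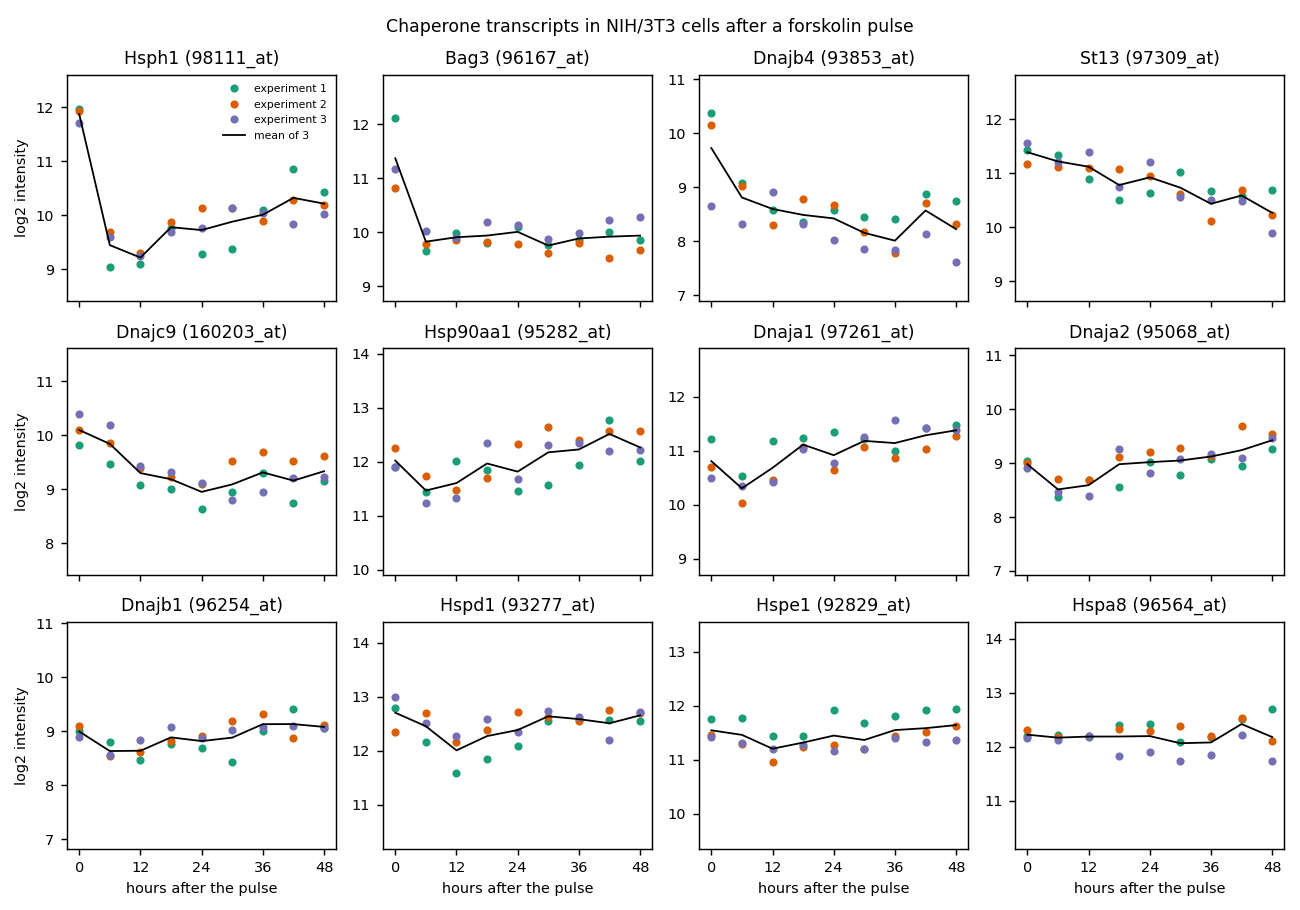
Normalized log2 intensity of 12 chaperone probe sets (vertical axis, each panel over the same span) against hours after the pulse, with 1 point per experiment and a line through the means of 3. Hsph1 stood at 9.04 to 9.69 at 6 h, against 11.71 to 11.97 at 0 h, Dnaja1 and Dnaja2 were lowest in the mean at 6 h and highest at 48 h, and Hspa8 stayed between 11.73 and 12.70.

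Within the Hsp70 and Hsp110 family, Hsph1, which exchanges the nucleotide of Hsp70 and helps it to dissolve aggregates, had normalized log2 values of 9.04, 9.69 and 9.60 at 6 h, against 11.97, 11.93 and 11.71 at 0 h. The deposited intensities behind them were 528.5, 814.4 and 776.1 at 6 h, against 4021.5, 4042.9 and 3339.6 at 0 h. The groups were far apart in every experiment, and the change was −2.43 ± 0.24 (SE, n = 3 per time, adjusted p = 8.46e-07), with −2.93, −2.25 and −2.11 in experiments 1, 2 and 3. The mean was lowest at 12 h, at 9.21 ± 0.10 (SD, n = 3), where the change from 0 h was −2.66 ± 0.24. At 48 h the values were 10.44, 10.19 and 10.02, still below all values at 0 h (change −1.66 ± 0.24, adjusted p = 6.84e-05). The slope from 6 h to 48 h was 0.52 ± 0.12 per day (adjusted p = 0.00896, and 0.0557 without experiment 2 and 0.0868 without experiment 3). Hsph1 was called at 6 h and at 48 h under every alternative run, with changes of −2.18 to −2.59 at 6 h when an experiment was left out.

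Hspa8, the constitutive Hsp70 of the cytosol, was not called in any comparison. Its log2 values were 12.22, 12.17 and 12.12 at 6 h, against 12.20, 12.31 and 12.17 at 0 h, a change of −0.05 ± 0.20. The heat-inducible Hspa1b had 9.83, 9.39 and 10.01 at 6 h, against 9.39, 9.34 and 9.53 at 0 h. These groups overlapped, and the change of 0.32 ± 0.25 was not called (adjusted p = 0.593). Its neighbour Hspa1a, which is nearly identical in sequence so that probes may not separate the genes, lay below the filter with time means from 5.73 to 6.86. Hspa9, the Hsp70 of the mitochondrial matrix, had 10.98, 10.99 and 11.21 at 6 h, against 11.20, 11.38 and 11.34 at 0 h, and Hspa4l, a relative of Hspa4, had a change of 0.05 ± 0.22. Neither passed at 6 h, at 48 h (−0.26 ± 0.13 for Hspa9 and −0.43 ± 0.22 for Hspa4l) or as a trend. Of the 8 family genes tested, 1 fell at 6 h and 6 had negative changes, with a median of −0.22.

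Hspa4, another cytosolic Hsp110, was read by several probe sets that went different ways. The brightest had 11.60, 11.41 and 11.45 at 48 h, against 11.16, 10.98 and 10.55 at 0 h, and all 3 values at 48 h were higher. Its change of 0.59 ± 0.21 did not pass (adjusted p = 0.0979) and did with the block (adjusted p = 0.0110). Its slope of 0.55 ± 0.10 per day passed (adjusted p = 0.00153, and 0.0621 without experiment 2 and 0.0622 without experiment 3). The second brightest had 9.06, 9.52 and 9.03 at 48 h and 9.11, 8.96 and 9.01 at 6 h, each against 9.88, 10.12 and 9.99 at 0 h. It changed by −0.97 ± 0.21 at 6 h (adjusted p = 0.00521, and 0.104 without experiment 3) and by −0.79 ± 0.21 at 48 h (adjusted p = 0.0190, and 0.122 without experiment 1 and 0.258 without experiment 3). The third had 8.62, 7.88 and 7.89 at 6 h, against 9.57, 9.18 and 9.03 at 0 h. It changed by −1.13 ± 0.26 (adjusted p = 0.0101, and 0.243 without experiment 2 and 0.0568 without experiment 3), and its change at 48 h passed with the block alone (−0.75, adjusted p = 0.0942, and 0.00226 with it). All 4 probe sets had negative changes at 6 h and they parted later, so no single course can be given for Hspa4.

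**Figure D2:**
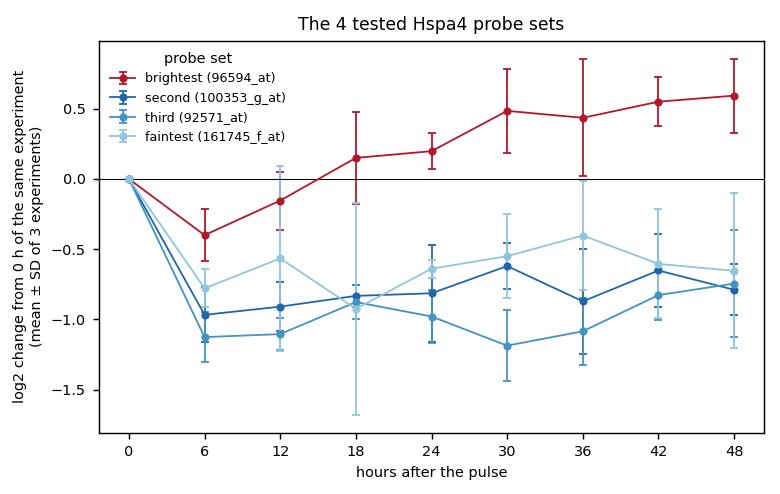
Change in log2 intensity of the 4 tested Hspa4 probe sets from 0 h of the same experiment (vertical axis, mean ± SD of 3 experiments) against hours after the pulse. The brightest ends at a change of 0.59 at 48 h, while the second ends at −0.79.

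The Bag proteins share a domain that helps Hsp70 to release its substrate. Bag3 had normalized log2 values of 9.66, 9.78 and 10.03 at 6 h, against 12.12, 10.82 and 11.16 at 0 h, by its brighter probe set. All values at 6 h were lower, and experiment 1 had the highest value at 0 h. The change was −1.55 ± 0.24 (adjusted p = 0.000178), with −2.46, −1.04 and −1.14 in the 3 experiments, and it was −1.09 without experiment 1 (adjusted p = 0.0246). From 12 h to 48 h the time means lay between 9.75 and 10.00. At 48 h the values were 9.85, 9.67 and 10.28, and the change from 0 h was −1.43 ± 0.24 (adjusted p = 0.000278). The other probe set, whose slope of 0.26 ± 0.14 per day passed with the block alone (adjusted p = 0.329, and 0.0314 with it), changed by −1.68 ± 0.37 at 6 h (adjusted p = 0.00544, and 0.125 without experiment 2 and 0.0686 without experiment 3) and by −1.23 ± 0.37 at 48 h (adjusted p = 0.0381, and 0.336 and 0.175 without these experiments). The other 3 Bag genes did not pass at either time without the block. Bag1, which binds Raf-1 and Bcl-2, changed by −0.24 ± 0.21 at 6 h. Bag2, an inhibitor of the ubiquitin ligase Chip, had the family's smallest p for the trend (0.17 ± 0.07 per day, adjusted p = 0.179). Bag6, which guards tail-anchored membrane proteins, passed at 48 h with the block alone (−0.40, adjusted p = 0.583, and 0.0305 with the block).

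Among the 24 J protein genes tested, 0 passed at 6 h by limma without the block, where 14 changes (58.3%) were negative, against 50.6% of all probe sets, and 6 (25.0%) had an unadjusted p below 0.05, against 17.4% of all. With the block 5 (20.8%) passed, all lower, against 16.7% of all. Dnajb4, a cytosolic partner of Hsp70, changed by −0.92 ± 0.36 (adjusted p = 0.156, and 0.0196 with the block) and Dnajb11 of the endoplasmic reticulum by −0.80 ± 0.37 (0.265 and 0.00250). Dnaja1 changed by −0.50 ± 0.22 (0.231 and 0.0420), Dnaja2 by −0.47 ± 0.19 (0.188 and 0.0421) and Dnajb6, which keeps polyglutamine proteins from aggregating, by −0.44 ± 0.18 (0.171 and 0.00583). Dnajb4 had 9.08, 9.02 and 8.32 at 6 h, against 10.37, 10.16 and 8.65 at 0 h. Experiment 3 began lower than the others and moved least. With the block 7 of the 24 genes passed at 48 h (29.2%, 4 higher and 3 lower), against 19.9% of all and 1 without it. As trends 8 passed with the block (33.3%, 6 up and 2 down), against 17.1% of all and 3 without it. Those that the block added as trends, each by its brightest probe set, were Dnajb11, Dnajc3 and Dnajc8 upward and Dnajb4 and Dnajb2 downward. At 48 h Dnajb4 had 8.75, 8.31 and 7.61, and its change from 0 h was −1.50 ± 0.36 (adjusted p = 0.00987, and 0.0653 without experiment 1 and 0.227 without experiment 2).

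The J proteins Dnaja1 and Dnaja2, which bind substrates and pass them to Hsp70, took another course. Dnaja1 had 11.22, 10.70 and 10.50 at 0 h, 10.54, 10.03 and 10.34 at 6 h, and 11.49, 11.27 and 11.38 at 48 h. Its slope from 6 h to 48 h was 0.48 ± 0.11 per day (adjusted p = 0.00685, and 0.0530 without experiment 2 and 0.282 without experiment 3). Dnaja2 had 9.04, 8.99 and 8.90 at 0 h, 8.37, 8.71 and 8.45 at 6 h, and 9.26, 9.54 and 9.47 at 48 h. Its values at 6 h lay below and those at 48 h above all values at 0 h. Its slope was 0.43 ± 0.09 per day (adjusted p = 0.00517, and 0.0612 without experiment 2 and 0.113 without experiment 3), with 0.41, 0.44 and 0.44 in the 3 experiments. At 48 h against 0 h the changes of Dnaja1 and Dnaja2, 0.57 ± 0.22 and 0.44 ± 0.19, passed with the block alone (adjusted p = 0.0183 and 0.0469 with it, and 0.136 and 0.196 without). Dnajb1, the main heat-inducible J protein, had 9.06, 9.12 and 9.07 at 48 h, against 8.80, 8.55 and 8.56 at 6 h. It rose by 0.30 ± 0.08 per day (adjusted p = 0.0282, and 0.288 and 0.220 without experiment 2 or 3, and 0.0705 with arrays centred on the median).

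Without the 6 h arrays the slopes were 0.36 for Dnaja1, 0.40 for Dnaja2 and 0.33 for Dnajb1 per day, with adjusted p values of 0.128, 0.0618 and 0.0895. Dnajc9, a J protein that also handles histones, had means of 10.10 ± 0.29 and 9.84 ± 0.37 at 0 h and 6 h, and of 9.30 ± 0.19 and 8.95 ± 0.27 at 12 h and 24 h (SD, n = 3 each). It varied over time (adjusted p = 0.0321, and 0.0904, 0.212 and 0.852 without experiment 1, 2 or 3). Its change at 48 h of −0.76 ± 0.24 passed with the block alone (adjusted p = 0.0551, and 0.00305 with the block). Of the J proteins of the endoplasmic reticulum, Dnajc3 and Dnajb9, each by its brightest probe set, passed as higher at 48 h with the block alone (0.56 ± 0.26 and 0.57 ± 0.33, adjusted p = 0.0203 and 0.0415 with it, and 0.236 and 0.383 without). The other tested probe sets of Dnajc3 went the other way at 48 h, with changes of −0.59 and −0.80. None of the 5 J proteins of the endoplasmic reticulum passed without the block in any comparison. Hspa5, the chaperone with which they work and itself outside the rule, had a slope of 0.58 ± 0.16 per day (adjusted p = 0.0236).

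**Figure D3:**
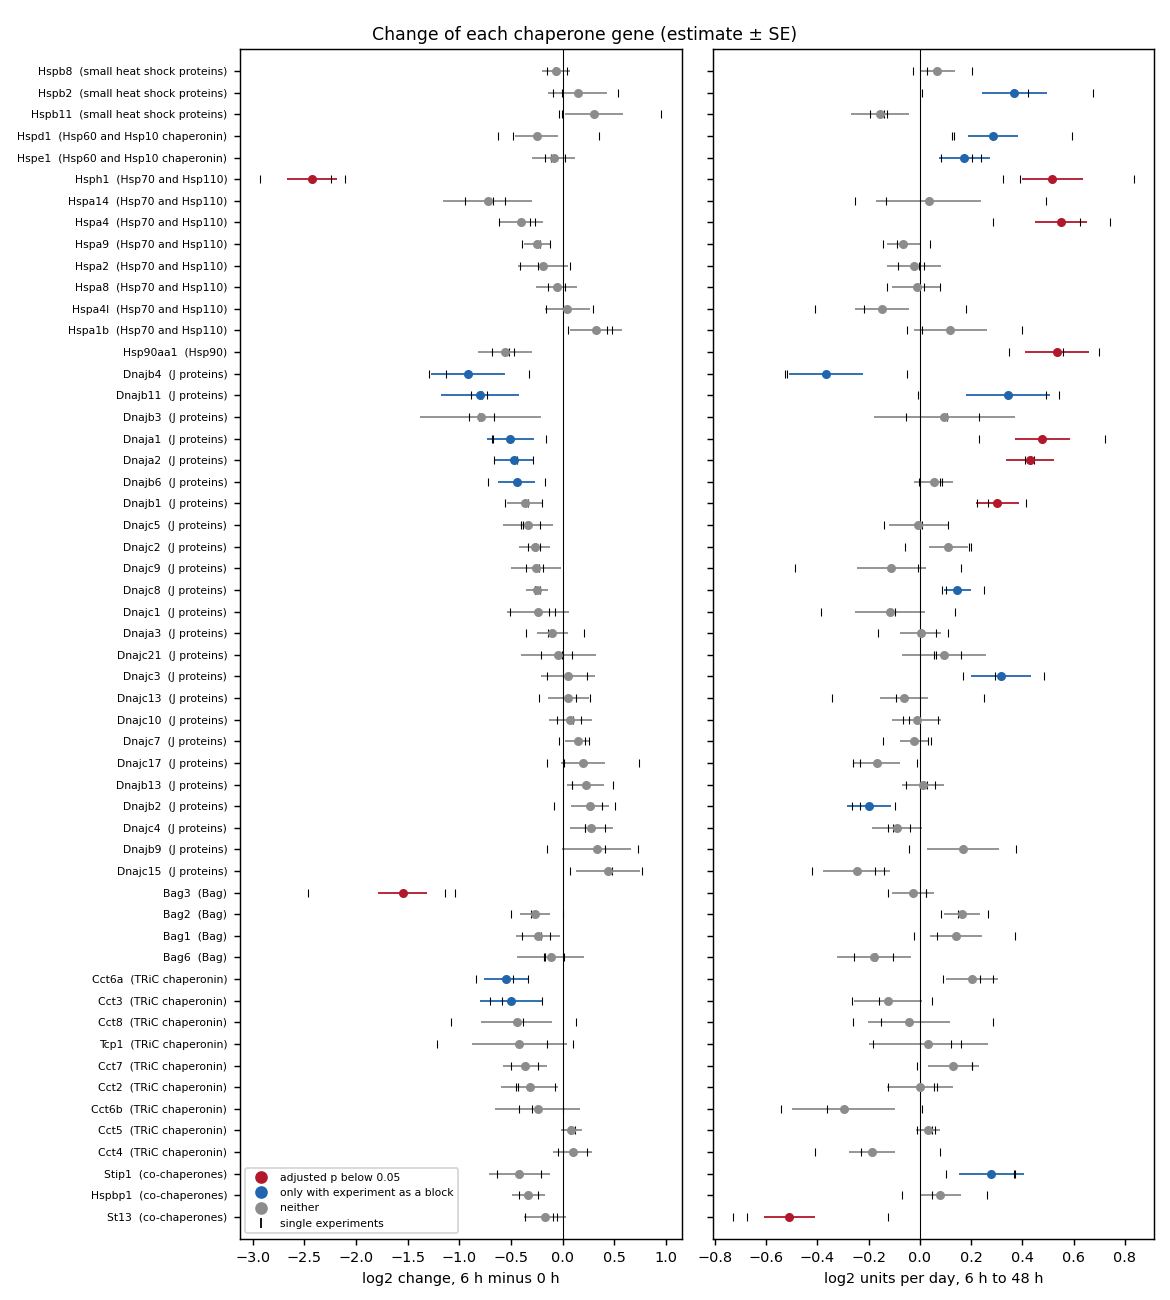
Change of each of the 54 tested chaperone genes by its brightest probe set (rows, grouped by family), as log2 intensity at 6 h minus 0 h on the left and as slope in log2 units per day from 6 h to 48 h on the right, with the estimate ± SE as point and line and the single experiments as ticks. Hsph1 at −2.43 and Bag3 at −1.55 are the 2 genes called on the left, and on the right 6 genes are called upward and St13 downward.

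Hsp90aa1, the stress-inducible cytosolic Hsp90, was the one Hsp90 gene among the members with a probe set. It had 11.43, 11.73 and 11.23 at 6 h, against 11.90, 12.25 and 11.91 at 0 h. All values at 6 h were lower, and the change of −0.55 ± 0.26 did not pass (adjusted p = 0.269, and 0.109 with the block). From 6 h to 48 h it rose by 0.54 ± 0.13 per day (adjusted p = 0.00980, and 0.105 without experiment 2, 0.148 without experiment 3 and 0.0652 without the 6 h arrays). Its mean was highest at 42 h, where the arrays had 12.77, 12.57 and 12.19, and at 48 h the change from 0 h was 0.24 ± 0.26. A second Hsp90aa1 probe set lay just under the filter.

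Among the adaptors of Hsp70 and Hsp90, St13 (Hip), which holds Hsp70 in its ADP state, fell. By its brighter probe set it had 11.44, 11.17 and 11.57 at 0 h, 11.34, 11.11 and 11.20 at 6 h, and 10.69, 10.22 and 9.89 at 48 h. The slope was −0.51 ± 0.10 per day (adjusted p = 0.00232, and 0.103 without experiment 2 and 0.129 without experiment 3), with −0.13, −0.68 and −0.73 in the 3 experiments. Without the 24 h terms the slopes of the experiments were −0.25, −0.55 and −0.72 per day. The change at 48 h was −1.12 ± 0.20 (adjusted p = 0.000785, and 0.132 without experiment 3). The other St13 probe set had a slope of −0.49 ± 0.10 per day (adjusted p = 0.00502, and 0.0633 and 0.0690 without these experiments) and a change at 48 h of −0.78 ± 0.20 (adjusted p = 0.0178, and 0.201 and 0.119). Both were called as trends with and without the 6 h arrays. Stip1 (Hop), which links Hsp70 to Hsp90, had a slope of 0.28 ± 0.13 per day that passed with the block alone (adjusted p = 0.225, and 0.0234 with the block). Hspbp1, an exchange factor of Hsp70, changed by −0.33 ± 0.16 at 6 h and did not pass (adjusted p = 0.300).

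The mitochondrial chaperonin genes Hspd1, by its brighter probe set, and Hspe1 had their lowest means at 12 h. Hspd1 had 12.78, 12.34 and 12.99 at 0 h, 11.59, 12.16 and 12.27 at 12 h and 12.55, 12.70 and 12.72 at 48 h, and the change at 6 h was −0.25 ± 0.21. Hspe1 had 11.76, 11.45 and 11.43 at 0 h, 11.44, 10.96 and 11.20 at 12 h and 11.94, 11.62 and 11.36 at 48 h. By these probe sets both genes were lower at 12 h than at 0 h in each experiment. That time was picked as the lowest, and no call was made for 12 h against 0 h. Neither was called at 6 h or 48 h with or without the block. The fainter tested probe set of Hspd1 was higher at 12 h in each experiment (7.73, 7.85 and 7.73, against 7.51, 7.30 and 7.51 at 0 h). The slopes of the brighter Hspd1 probe set and of Hspe1, 0.29 ± 0.10 and 0.17 ± 0.10 per day, passed with the block alone (adjusted p = 0.0143 for Hspd1 and 0.0310 for Hspe1 with it, and 0.0839 and 0.361 without). Of the 6 mitochondrial members, Dnajc11 was below the filter, with time means from 5.94 to 7.41, and no other one was called in any comparison without the block.

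The TRiC chaperonin folds actin and tubulin, and 9 genes for its subunits or their relatives were tested. By limma without the block 0 of 9 were called over all times, at 6 h, at 48 h or as a trend (0, 1, 1 and 1 of 9 had an unadjusted p below 0.05, against 17.4% to 19.6% of all probe sets). At 6 h 7 of 9 changes were negative, with a median of −0.36 (50.6% of all probe sets were negative), and 2 (22.2%) passed with the block, against 16.7% of all. The same 2 genes, Cct6a and Cct3, varied over the 9 times with the block, against 26.4% of all, and Cct3 alone passed at 48 h with it. Cct6a had 9.65, 9.41 and 8.87 at 6 h, against 10.13, 9.74 and 9.71 at 0 h (−0.55 ± 0.21, adjusted p = 0.144, and 0.00567 with the block). Cct3 had 11.01, 11.57 and 10.96 at 6 h, against 11.21, 12.16 and 11.67 at 0 h, and its experiments differed by about as much as its times. By this brightest probe set it was lower at 6 h in each experiment (−0.50 ± 0.31, adjusted p = 0.454, and 0.00585 with the block), and at 48 h its change was −0.70 ± 0.31 (adjusted p = 0.196, and 0.000181 with the block). The other tested Cct3 probe sets changed by −0.45 and −0.54 at 6 h and by −0.37 and −0.04 at 48 h. Tcp1, the alpha subunit, scattered widely, with an SD of 0.98 at 12 h and at 24 h, and changed by −0.42 ± 0.46 at 6 h. Cct4 had the smallest p of the family for the trend (−0.19 ± 0.09 per day, adjusted p = 0.243).

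The 3 genes tested under small heat shock proteins, of which Hspb11 encodes a protein of intraflagellar transport, did not pass any test without the block. Hspb8, a partner of Bag3, had 10.52, 10.75 and 10.73 at 0 h, 10.56, 10.68 and 10.58 at 6 h and 10.87, 10.47 and 10.71 at 48 h, and these groups overlapped. Hspb2, a muscle-type small heat shock protein, had a slope of 0.37 ± 0.13 per day that passed with the block alone (adjusted p = 0.0888, and 0.0182 with it). Hspb11 had the smallest p of the family at 6 h (0.31 ± 0.28, adjusted p = 0.670). Hspb1 (Hsp25) was below the filter, with time means from 4.91 to 6.19.

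The families are set side by side over the full course as the median change of their tested genes from 0 h of the same experiment. For all 54 genes this median was −0.19 ± 0.03 and −0.19 ± 0.04 at 6 h and 12 h, and −0.16 ± 0.06, −0.12 ± 0.05 and −0.09 ± 0.07 at 24, 36 and 48 h (SD, n = 3 experiments). The median over all 7453 probe sets was −0.0014 ± 0.0059 at 6 h and 0.0040 ± 0.0085 at 48 h. The J proteins were at −0.03 ± 0.03 at 42 h, and the Hsp60 and Hsp10 pair was at −0.52 ± 0.22 at 12 h and 0.02 ± 0.22 at 48 h. The Bag genes were at −0.28 ± 0.16 and the co-chaperones at −0.41 ± 0.01 at 48 h. The co-chaperone median fell on Stip1 in experiment 1 and on Hspbp1 in experiments 2 and 3, so its SD is not the spread of a gene. The changes at 48 h were −1.12 for St13, −0.28 for Hspbp1 and −0.19 for Stip1. Differences between families were not tested. The highest time mean fell at 0 h in 20 of the 54 genes (37.0%), against 20.9% of all probe sets. The lowest fell at 6 h or at 12 h in 10 genes each (18.5% each), against 15.6% and 12.3% of all. In 14 of the 54 genes the means of the 3 experiments ranged over more than the means of the 9 times.

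**Figure D4:**
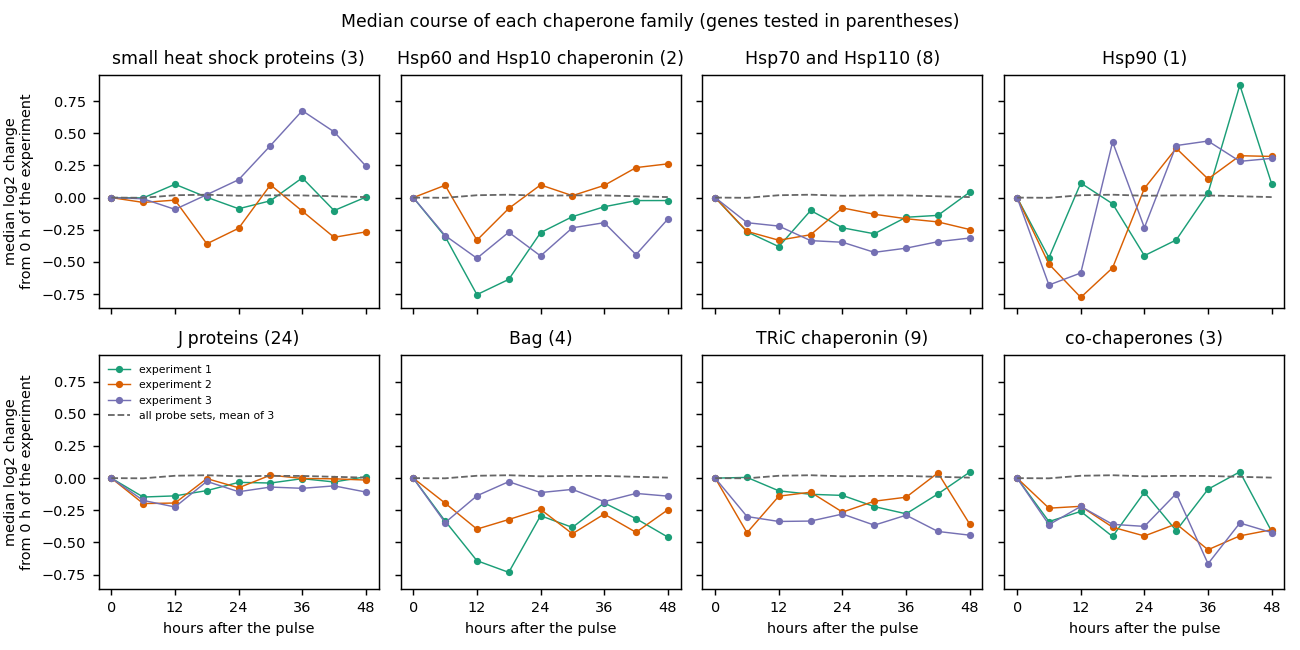
Median log2 change of the tested genes of each family from 0 h of the same experiment (vertical axis) against hours after the pulse, with 1 line per experiment and, dashed, the median of all probe sets as a mean of the 3 experiments. The Hsp70 and Hsp110 family lies at −0.24 in the mean at 6 h and at −0.17 at 48 h. The 3 genes placed under small heat shock proteins lie at −0.02 and −0.01, with experiments from −0.27 to 0.25 at 48 h. Singly, Hspb11, Hspb2 and Hspb8 changed by 0.31, 0.15 and −0.06 at 6 h.

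No member was called for a 24 h rhythm. In limma fits of a cosine, a sine and a linear term to the 24 arrays from 6 h to 48 h, 0 of 73 member probe sets and 0 of all 7453 (0%) were called, with the block as without it. One member probe set (1.37%) had an unadjusted p below 0.05, against 247 of all 7453 (3.31%). With the block 4 (5.48%) had one, against 785 of all (10.5%). That member was Dnajb13, a J protein of sperm and cilia, with an amplitude of 0.24 ± 0.06 log2 units and a fitted peak at 14.4 h (adjusted p = 1.00, and 0.241 with the block). Its time means from 6 h to 48 h, in steps of 6 h, were 8.52, 8.80, 8.85, 8.37, 8.54, 8.83, 8.79 and 8.48. The next were Dnajb9, with an amplitude of 0.26 ± 0.11, and Dnajc8, a J protein of the spliceosome, with 0.26 ± 0.12 by the fainter of its tested probe sets (adjusted p = 0.315 and 0.513 with the block).

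Genes outside the rule that work with the members were mostly not called. Of all probe sets 6.08% were called at 6 h, 7.92% at 48 h and 6.1% as a trend without the block. Of 16 listed Hsp90 co-chaperones 12 were tested. Unc45a, a chaperone of myosin, fell at 6 h (−0.80 ± 0.16, adjusted p = 0.00344) and at 48 h (−0.79 ± 0.16, adjusted p = 0.00323). As trends, Ppid (0.43 ± 0.12 per day) and Fkbp4 (0.26 ± 0.07 per day), immunophilins of steroid receptor complexes, rose, and Sugt1 (−0.39 ± 0.10 per day), which couples Hsp90 to the kinetochore, fell. Of 10 genes linked to heat shock factors and proteotoxic stress 7 were tested. Hsbp1, a binding partner of heat shock factor 1, rose at 6 h (0.96 ± 0.26, adjusted p = 0.0299) and Tubb2a, a beta tubulin, rose as a trend (0.30 ± 0.07 per day). Of 7 prefoldin genes, which deliver proteins to TRiC, 5 were tested, and of 12 mitochondrial import and protease genes 9 were tested, and 0 of these were called without the block at 6 h, at 48 h or as a trend. With the block Timm23, a channel of the inner membrane, passed at 6 h (−0.55 ± 0.23, adjusted p = 0.188, and 0.00888 with the block), and Timm23 and the import receptor gene Tomm70a passed as rising trends (0.30 and 0.25 per day, adjusted p = 0.00546 and 0.0421 with the block). Of the 12 co-chaperones 2 were lower at 6 h with the block (Unc45a and Chordc1). At 48 h 2 were higher (Ppid and Fkbp5) and 3 lower (Unc45a, Chordc1 and Cdc37). With the block 16.7% of all probe sets were called at 6 h, 6.78% of them all as lower. At 48 h 10.8% of all were called higher and 9.16% lower, and 17.1% of all had a trend. Hsbp1 was also called higher at 48 h with the block (0.69, adjusted p = 0.126, and 0.0416 with it). Hspa5 and Hsp90b1, left out by the rule, also passed at 6 h with the block alone (−0.85 and −0.40, adjusted p = 2.57e-05 and 0.0469 with it, and 0.168 and 0.198 without).

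Probe sets of 1 gene did not always move together. Of the 13 genes with several tested probe sets, both signs occurred in 4 at 6 h (Bag6, Cct5, Dnajc3 and Dnajc8), in 4 at 48 h (Cct5, Dnajc3, Dnajc8 and Hspa4) and in 7 as a trend, Bag3 and Cct3 among them. The members just above the filter were Cct6b, Dnajb3 and Hspa14, with mean log2 values of 6.93, 6.94 and 7.20. Those just below were probe sets of Dnajc11, Hsp90aa1 and Cct6a, at 6.76, 6.64 and 6.55.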

How the data were processed

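Labelled RNA of 27 NIH/3T3 cultures was hybridised to Affymetrix mouse U74v2 arrays, per the labels. The deposited values are intensities on a linear scale, 1 per probe set; how probes were summarised and scaled into them was not given in the sources used here. On every array their mean, without the top and bottom 2%, was 500.277 to 500.347, and array medians were 167.6 to 201.3. Gene names came from the platform annotation, in which 10855 probe sets have 1 symbol, 396 several and 1193 that are no controls none; all 60 member genes matched RefSeq (GRCm38.p6) by gene ID. No arrays had identical values.

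Intensities were taken as log2(intensity + 12.1), the constant being the 10th percentile, and quantile normalized, since array medians spread by 0.25 on the log2 scale. The 66 control probe sets and the 40% of the others with the lowest mean were left out. All 7453 others were fitted with limma 3.58.1 (R 4.3.3; eBayes with intensity trend, Benjamini-Hochberg adjustment): an F test over 9 times and contrasts to 0 h on 27 arrays, and 1 fit of a linear term with a 24 h cosine and sine on 24 arrays, for trend and rhythm. Fold changes on this scale understate changes of dim probe sets. The scripts were tested on simulated data. Each gene is represented by its brightest probe set. P-values without the block rest on the spread between the arrays of a time, pooled over the times, and treat the arrays as independent. With the block, the mean differences between the 3 experiments are taken out of that spread. In the trend and rhythm fits the spread also holds departures of the times from the fitted curve. The number of experiments limits the precision.

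Arrays with the same experiment number pair the samples: deviations from the time means correlated at 0.43 to 0.64 over the 36 array pairs of experiment 1, while experiment 2 gave 0.35 to 0.60 and experiment 3 gave 0.14 to 0.48. The main fits have no block; the fit with the experiment as a block is an alternative. Others changed the scaling, the pseudocount (1 or 50), the filter (none, 60th percentile), the variance trend, array weights, the time span of the trend, or left out 1 experiment or 2 arrays of experiment 1. Members, families, partner lists and markers were chosen with earlier results of these data known. Named genes are, per comparison, the 10 largest rises and falls among called members with 1 sign in all experiments, a list of major chaperones whatever their result, the smallest p of each family, called partner genes, and the 3 smallest p of the rhythm; genes called with the block alone, markers called, members at the filter and Dnajc9 were added after their values were seen.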

Additional observations from a re-analysis of the deposited data

How the results depend on the processing

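With the experiment as a replicate block, 21 member probe sets varied over time, 14 changed at 6 h, 18 changed at 48 h and 19 had a trend, against 9, 5, 7 and 8 without it. The shares of all probe sets called rose too, to 26.4%, 16.7%, 19.9% and 17.1%, against 7.3%, 6.08%, 7.92% and 6.1% without it. Over the 9 time points leaving out 1 experiment gave 2 to 6 calls, at 6 h 3 to 6, at 48 h 3 to 7, for the trend 0 to 12 and for the rhythm 0 to 0. Array weights gave 13 calls at 48 h (2 higher, 11 lower), against 12.1% of all probe sets. A trend over 12 h to 48 h gave 4 (2 up, 2 down), for which no share of all probe sets is given. Counts under the other scalings, pseudocounts, filters and variance model, and without 2 arrays of experiment 1, stayed within 1.5 times the counts given. Of 787 values of named members under an alternative, 738 kept their direction and side of the threshold. Of the rest, 37 no longer passed, 12 passed newly and 0 changed direction with a call. The cause was not tested, and fits without an experiment also held fewer arrays. Of the 90 member probe sets, 73 were bright enough to be tested.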
